A study of Rattus norvegicus with 16 samples.

Results

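The genes described here encode the machinery that stores, docks and fuses synaptic vesicles in nerve terminals. They were taken by symbol: the synaptotagmins (Syt), synapsins (Syn1 to Syn3), SV2 proteins, Rab3 proteins, complexins (Cplx), VAMPs (Vamp1 to Vamp8), Stx1a, the syntaxin-binding proteins (Stxbp), Snap25, Snap91, the RIM (Rims) and Munc13 (Unc13) proteins, Bsn, Pclo, Syp, Sypl1, Napa, Napb, Nsf and the Doc2 proteins. A gene was kept in a tissue where its mean was at least 1 FPKM, a read density per transcript length and library size. Where a symbol had several loci in a table, the locus with the highest mean was used. In hypothalamus 56 of 60 matching symbols were kept, of 16183 symbols in the table, and in hippocampus 58 of 61, of 16223. Of the 59 genes kept in at least 1 tissue, 55 were kept in both. The symbols under the limit were Cplx3 (0.877 FPKM), Syt15 (0.459), Syt8 (0.215) and Cplx4 (0) in hypothalamus, and Syt10 (0.914), Syt15 (0.202) and Syt8 (0.13) in hippocampus. The lowest members above it were Unc13b (2.19 FPKM) and Stxbp2 (2.65) in hypothalamus and Cplx4 (1.505) and Syn3 (1.80) in hippocampus. Vamp3 was analysed in hippocampus alone.

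Messenger RNA was sequenced from the hypothalamus and the hippocampus of male Sprague Dawley rats given fructose for 6 weeks and of untreated male Sprague Dawley rats, with 4 labelled samples per group and tissue. Hypothalamus was analysed with 3 fructose and 4 control libraries, since the authors' FPKM held no values for fructose replicate 4, and hippocampus with 4 and 4. The labels give neither the fructose dose nor the rats' age, and nothing in them ties each library to a rat of its own, so p-values measure the spread between samples, which may be technical. No genetic change is labelled for any group, and each sample is RNA of bulk tissue, so fewer cells of a type and less RNA per cell cannot be told apart.

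At a synapse, filled vesicles are held near the membrane by synapsins and are brought to the active zone by Rab3, RIM, bassoon and piccolo. Munc13 proteins help to open and assemble the SNARE bundle of VAMP, syntaxin and SNAP-25, and complexin holds it until calcium binds a synaptotagmin. NSF and its SNAP adaptors then take the spent bundle apart, and clathrin adaptors such as AP180 (Snap91) retrieve the vesicle membrane. Families such as the synaptotagmins and the SV2 proteins have members that differ between brain regions.

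Several libraries stood apart before any comparison. Across loci, the 2 replicate 1 libraries of a tissue had r = 0.98 with each other in hypothalamus and 0.985 in hippocampus, and 0.88 to 0.909 and 0.84 to 0.896 with the other libraries. In hippocampus, control replicate 4 held transcripts of the pineal gland and photoreceptors: the summed level of 10 such genes, a list chosen after the values were seen, was 694 FPKM there and 1.07 to 3.35 FPKM in the other 7 hippocampus libraries. The tissue labels were checked with marker genes. The summed level of 9 hypothalamus genes was 2757 to 7314 FPKM in hypothalamus and 3.13 to 28.4 FPKM in hippocampus, and that of 6 hippocampus genes was 76.8 to 116 FPKM and 170 to 326 FPKM. The vesicular glutamate transporter Slc17a7 averaged 3.10 FPKM in hypothalamus and 677 FPKM in hippocampus. Npy, a neuropeptide of both tissues, was at 0 in every hippocampus library and at 0 in all hypothalamus libraries except fructose replicate 1 (0.0928 FPKM).

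Several genes of the fusion machinery were among the most abundant messenger RNA of both tissues, while the core genes Stx1a and Unc13a lay lower, at percentiles 70.1 and 52.6 in hypothalamus and 91.7 and 84.6 in hippocampus. Among the 5 highest members in hypothalamus were Vamp2 (666 FPKM on average over 7 libraries), Syp (470.3), Rab3a (421) and Snap25 (395), and the 5 lay at percentiles 98.1 to 99.4 of the loci with at least 1 FPKM. In hippocampus they were Vamp2 (1096 FPKM over 8 libraries), Cplx1 (938), Syp (608), Snap25 (590.5) and Syt1 (486), at percentiles 99.2 to 99.8. Snap25, the plasma membrane SNARE that gives 2 of the helices of the bundle, was at 369, 449.9 and 352 FPKM in fructose and 345, 490.1, 354 and 404 FPKM in control hypothalamus. In hippocampus it was at 426, 590.0, 668 and 684 FPKM in fructose and 443, 701, 555 and 656 FPKM in control libraries. The groups overlapped in both tissues, and replicate 1 was the lowest library of each group except in fructose hypothalamus, where replicate 3 was. Syp, a membrane protein used to stain vesicles, was at 426, 466 and 461 FPKM in fructose and 391, 528, 439 and 581 FPKM in control hypothalamus, with the fructose libraries inside the control range.

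**Figure D1:**
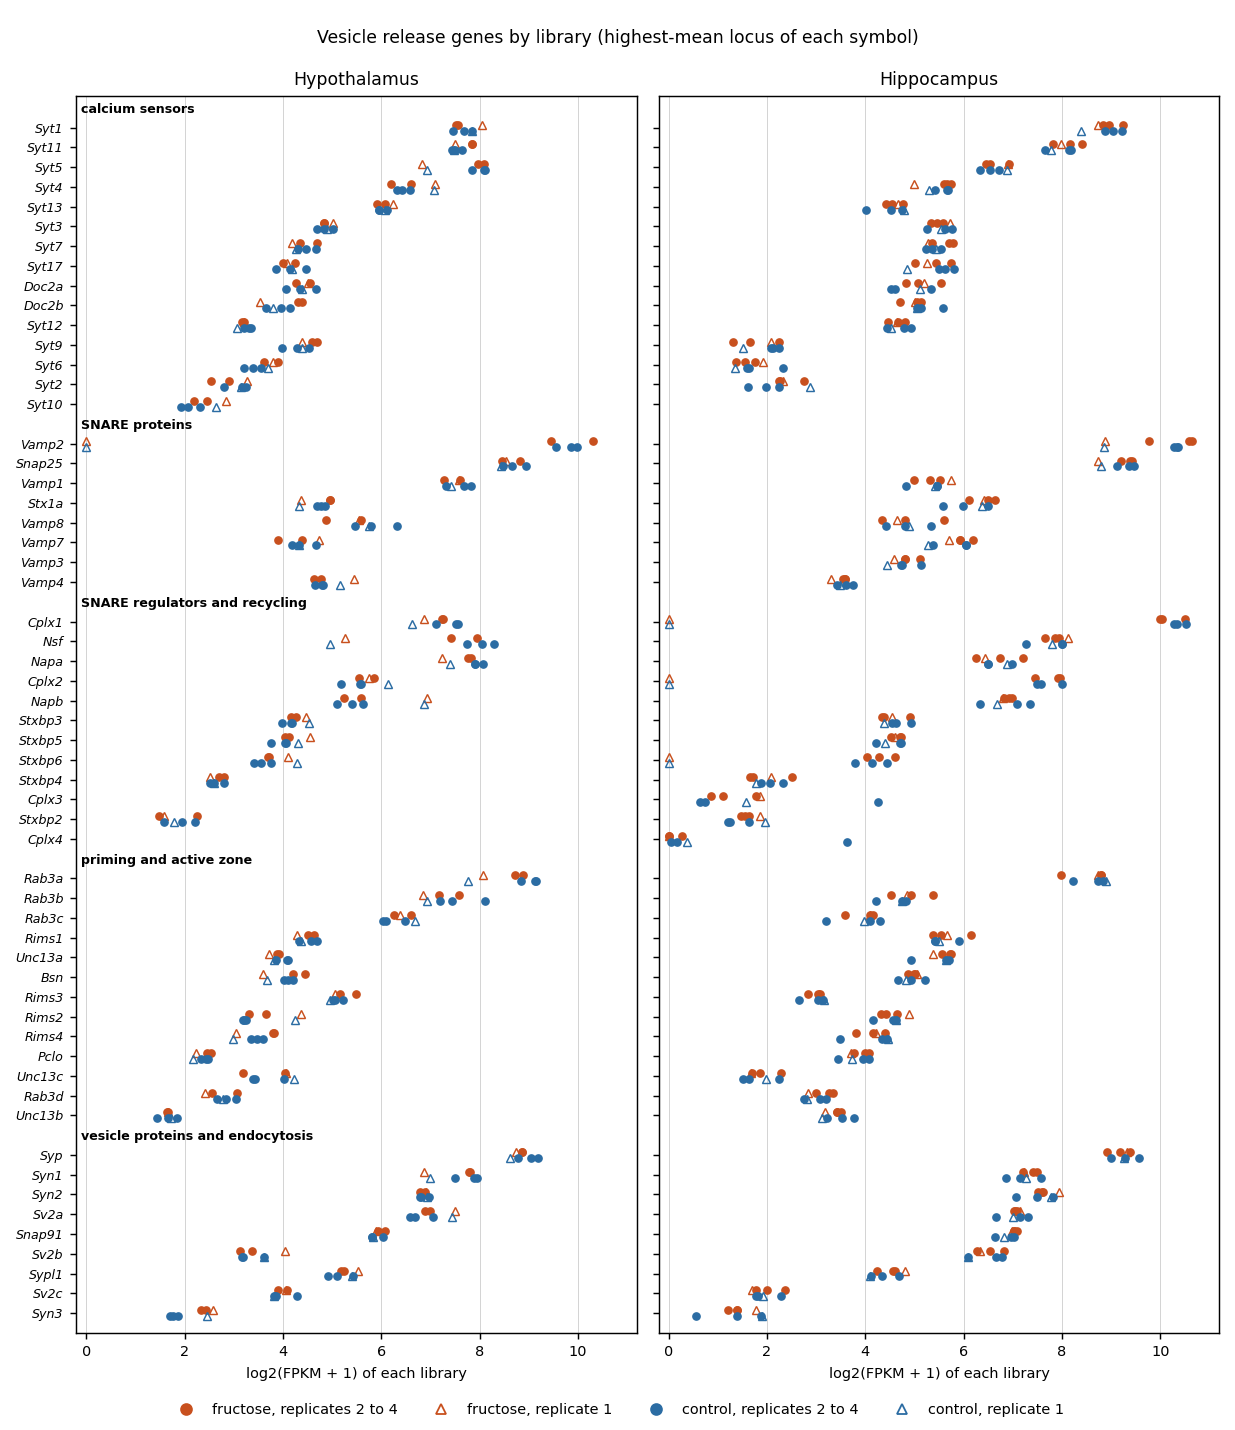
Each point is 1 library's level of 1 gene as log2(FPKM + 1), with hypothalamus on the left and hippocampus on the right; fructose libraries are orange and control libraries blue, triangles are replicate 1, and hypothalamus fructose has replicates 2 and 3 only beside replicate 1. Fructose and control points intermix for nearly every gene, while Vamp2 in hypothalamus and Cplx1, Cplx2 and Stxbp6 in hippocampus have both replicate 1 libraries at 0.

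The synaptotagmins and Doc2 proteins were grouped by symbol under the name calcium sensors, which does not hold for each of them. Among the synaptotagmins, the order of levels differed between the tissues. In hypothalamus Syt5 (218 FPKM), Syt1 (210), which triggers fast synchronous release, and Syt11 (195), which does not bind calcium, had library ranges that overlapped one another, followed by Syt4 (99.4) and Syt13 (65.4). In hippocampus Syt1 stood first with 486 FPKM, followed by Syt11 (261), Syt5 (101), Syt3 (45.6) and Syt4 (45.1), and the lowest Syt1 library (332) lay just under the highest Syt11 library (339). Syt1 was at 264, 189 and 182 FPKM in fructose and 228, 228, 176 and 204 FPKM in control hypothalamus, against 421, 496, 452 and 606 FPKM in fructose and 332, 595, 522 and 467 FPKM in control hippocampus. All hippocampus libraries lay above all hypothalamus libraries for Syt1. Of the rarer synaptotagmins, Syt10 was kept in hypothalamus (4.21 FPKM) and lay under the limit in hippocampus (0.914 FPKM).

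The tissues were set side by side without a test, since each table was normalised separately by the authors. The levels are those of the loci used, and second loci were left out. Over the 9931 symbols at 1 FPKM or more in both tables, the median ratio of hypothalamus to hippocampus was 1.15, and 7.37% had a ratio above 3 and 3.97% were more than 3 times lower in hypothalamus. Over the 55 members found in both, the median ratio was 0.774, with 8 members (14.5%) beyond the upper limit and 8 beyond the lower one. The library ranges of hypothalamus lay wholly above those of hippocampus for 14 members and wholly below for 17, and overlapped for 24. Over all 9931 symbols the hypothalamus range was above for 25.3% and below for 12.9%.

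Members with the higher level in hypothalamus included a calcium sensor, Rab3 proteins and an SV2 protein. Syt9, a fast calcium sensor of limbic neurons in mice, was at 19.9, 25.1 and 23.1 FPKM in fructose and 19.9, 18.4, 22.2 and 14.8 FPKM in control hypothalamus, against 3.26, 2.14, 1.47 and 3.76 FPKM in fructose and 1.87, 3.22, 3.73 and 3.36 FPKM in control hippocampus, a ratio of means of 7.18. Rab3b, a vesicle GTPase also found in endocrine cells, was at 115, 144 and 189 FPKM and 121, 146, 172 and 275 FPKM in fructose and control hypothalamus, and at 27.7, 40.6, 29.6 and 22.1 FPKM and 25.8, 17.5, 26.0 and 27.2 FPKM in fructose and control hippocampus (ratio 6.14). No library of one tissue reached those of the other for these genes. Rab3c was at 82.7, 97.1 and 76.2 FPKM in fructose and 103, 88.8, 67.3 and 64.3 FPKM in control hypothalamus, and at 16.2, 10.9, 16.8 and 16.1 FPKM in fructose and 14.6, 16.02, 18.6 and 8.18 FPKM in control hippocampus (ratio 5.63). Sv2c, the SV2 form of the basal ganglia and brain stem, was at 15.6, 14.03 and 15.9 FPKM in fructose and 13.1, 18.5, 13.5 and 13.1 FPKM in control hypothalamus, and at 2.25, 2.43, 3.02 and 4.12 FPKM in fructose and 2.79, 2.51, 3.85 and 2.42 FPKM in control hippocampus (ratio 5.07). Again the tissue ranges were separate for both genes. Syt6 (ratio 4.89), the short RIM protein Rims3 (4.89), the Munc13-3 gene Unc13c (4.86) and Vamp1 (4.60) completed the group above 3. The other members whose hypothalamus libraries were all higher were Syt13, Vamp4, Syt4, Napa, Sypl1 and Stxbp4, with ratios of 1.72 to 2.86.

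Members with the lower level in hypothalamus included a plasma membrane syntaxin, Munc13 proteins and SV2B. Sv2b, an SV2 form found largely in glutamate neurons, was at 15.5, 9.38 and 7.73 FPKM in fructose and 11.24, 11.3, 8.15 and 8.04 FPKM in control hypothalamus, against 79.9, 91.5, 76.3 and 112 FPKM in fructose and 67.4, 109, 100.2 and 66.9 FPKM in control hippocampus, a ratio of 0.116. Its hippocampus values were several times the highest hypothalamus value. Stx1a, a plasma membrane syntaxin, was at 19.7, 30.2 and 29.9 FPKM in fructose and 19.1, 28.0, 26.6 and 25.1 FPKM in control hypothalamus, and at 84.6, 89.5, 98.9 and 68.1 FPKM in fructose and 81.8, 88.6, 62.8 and 46.6 FPKM in control hippocampus (ratio 0.329). Unc13a, the Munc13-1 priming factor of most glutamate synapses, was at 12.2, 13.7 and 14.2 FPKM in fructose and 13.1, 13.6, 16.01 and 16.1 FPKM in control hypothalamus, and at 40.3, 45.9, 52.1 and 52.1 FPKM in fructose and 49.1, 49.0, 50.8 and 29.3 FPKM in control hippocampus (ratio 0.307). These ranges were separate too, the hippocampus value nearest to hypothalamus being that of control replicate 4 (29.3 FPKM). Unc13b, the Munc13-2 gene, was at 2.15, 2.13 and 2.18 FPKM in fructose and 2.32, 1.73, 2.19 and 2.61 FPKM in control hypothalamus, and at 8.05, 9.78, 9.76 and 10.4 FPKM in fructose and 7.67, 10.4, 8.30 and 12.7 FPKM in control hippocampus (ratio 0.227). Pclo, the active zone scaffold piccolo, had a ratio of 0.314. Cplx1 (0.156) and Cplx2 (0.314) also had ratios this low, but their ranges overlapped, since both replicate 1 libraries of hippocampus were at 0 for the locus used. Further members with all hypothalamus libraries lower were Bsn, Doc2b, Rims1, Snap91, Syn2, Syt1, Syt3, Syt7, Syt12, Syt17 and Vamp7, with ratios of 0.34 to 0.625.

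Of the vesicle SNAREs, Vamp1, close kin of Vamp2, averaged 185 FPKM in hypothalamus and 40.2 FPKM in hippocampus, Vamp4 29.4 FPKM and 10.7 FPKM, Vamp7 19.9 FPKM and 56.4 FPKM, and Vamp8 50.2 FPKM and 29.1 FPKM, while Vamp3 averaged 27.1 FPKM in hippocampus. The synaptotagmins Syt2, Syt3, Syt7, Syt12 and Syt17 and the Doc2 proteins lay between 4.05 and 45.6 FPKM in both tissues. Of the proteins that recycle the SNARE bundle, the ATPase gene Nsf averaged 182 FPKM in hypothalamus and 229 FPKM in hippocampus, Napa 215 FPKM and 104 FPKM, and Napb 63.4 FPKM and 118 FPKM. The tomosyn gene Stxbp5, an inhibitor of SNARE assembly, averaged 16.7 FPKM in hypothalamus and 22.9 FPKM in hippocampus, and Stxbp3, a syntaxin-binding protein of many tissues, 18.2 FPKM and 23.2 FPKM. Stxbp2, Stxbp4 and Stxbp6 stayed between 2.01 and 13.4 FPKM in both tissues. In the active zone, Rims1, the long RIM protein that tethers calcium channels, averaged 21.5 FPKM in hypothalamus and 49.1 FPKM in hippocampus, Rims2 11.8 FPKM and 22.3 FPKM, and Rims4 10.1 FPKM and 17.4 FPKM. Bsn, the scaffold bassoon, averaged 15.8 FPKM in hypothalamus and 29.9 FPKM in hippocampus. Among the vesicle proteins, Sv2a, the target of the drug levetiracetam, averaged 132 FPKM in hypothalamus and 132 FPKM in hippocampus, Syn2 116 FPKM and 197 FPKM, and Snap91 59.6 FPKM and 123 FPKM. These Sv2a means are those of the loci used: a second Sv2a locus of hypothalamus averaged 78.8 FPKM, so the levels of the gene cannot be called equal. Second Nsf loci averaged 173.5 FPKM in hypothalamus and 157 FPKM in hippocampus. The Nsf locus used was at 37.2 and 30.1 FPKM in the replicate 1 libraries of hypothalamus. In hippocampus second loci averaged 19.6 FPKM for Vamp1, 52.7 for Napb, 73.1 for Syn2 and 26.1 for Snap91, among others. Levels and ratios of such genes hold for the loci used only.

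**Figure D2:**
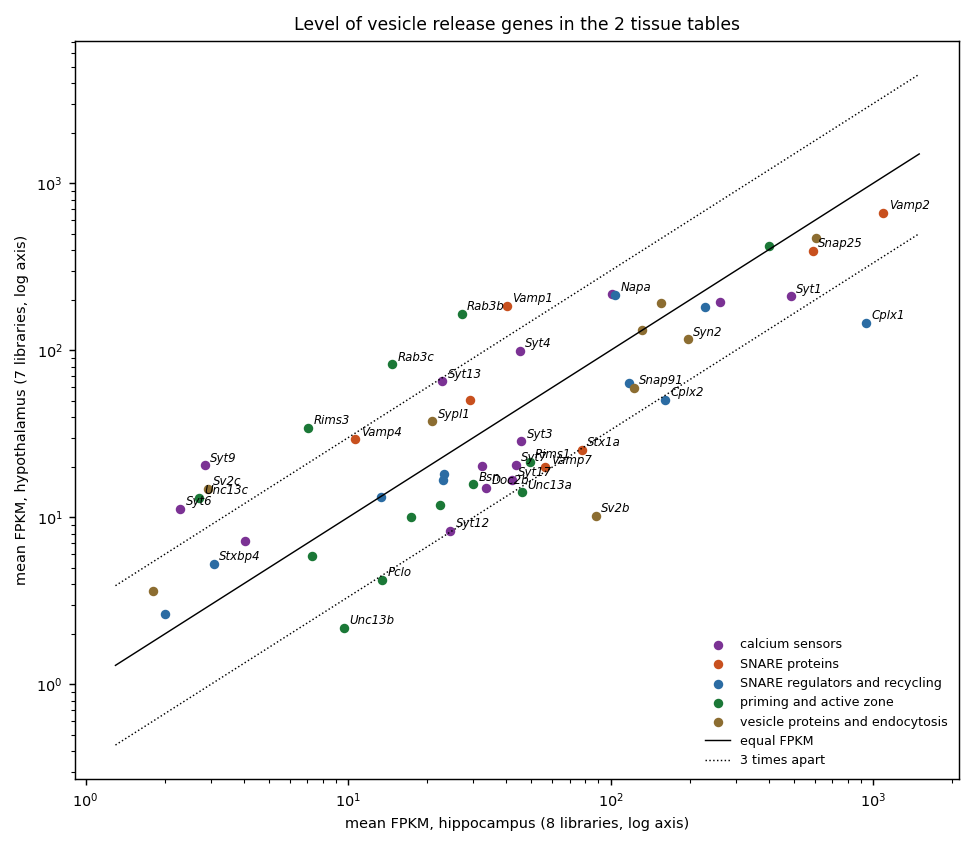
Each point is a gene kept in both tissues, coloured by role. Its mean FPKM in hippocampus (8 libraries) is on the horizontal log axis and that in hypothalamus (7 libraries) on the vertical log axis. Named points are those whose library ranges are separate, and Cplx1, Cplx2, Vamp2 and Snap25. Syt9, Rab3b, Rab3c and Sv2c lie above the upper line of 3 times, and Sv2b, Cplx1 and Unc13b below the lower one.

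Ratios of paralogs within a library depend little on how the library was scaled. Over 14 pairs of paralogs, the log2 ratio had separate library ranges in the tissues for 7. Of all single symbols, 25.3% had hypothalamus ranges wholly above those of hippocampus and 12.9% wholly below. The share over other pairs of genes was not computed, so nothing particular to paralogs is read from the count. The Sv2a to Sv2b ratio was 3.40 to 3.86 on the log2 scale in hypothalamus and 0.22 to 0.91 in hippocampus. The Rab3a to Rab3c ratio was 1.07 to 3.09 in hypothalamus and 3.88 to 5.21 in hippocampus. The Syt1 to Syt2 ratio was 4.42 to 5.03 in hypothalamus and 5.50 to 7.26 in hippocampus. The Syt4 to Syt11 ratio was -1.66 to -0.41 in hypothalamus and -2.99 to -2.22 in hippocampus. Napa, the alpha-SNAP gene, exceeded Napb in every hypothalamus library, by 0.31 to 2.96, while the hippocampus ratio was -0.85 to 0.28. The Bsn to Pclo ratio was 1.37 to 1.91 in hypothalamus and 0.91 to 1.34 in hippocampus, ranges separated by a narrow gap. For Vamp1 to Vamp2 the ranges were -2.70 to 7.58 in hypothalamus and -5.59 to -3.12 in hippocampus, and the upper end comes from the replicate 1 libraries whose Vamp2 locus was at 0. For the other 7 pairs the ranges overlapped. These are descriptions with no test.

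Promoters were compared with those of all protein-coding genes for short binding motifs, searched on both strands in the 250 bases before the transcription start. RefSeq (build GRCr8) gave a promoter for 41 of the 59 members, and a member is counted once where it has several. Of these, 28 (68.3%) held GGGCGG, the core of an SP1 site, against 38.9% of 21851 promoters of all protein-coding genes. Their median GC content was 64.4%, against 54% for all, and they held a median of 17 CpG dinucleotides, against 8; the motif is itself rich in G and C, and the 2 measures are not separate. TATAAA was found in 1 member, Stxbp3 (2.44%), and in 12.1% of all promoters. Unlike the members, the promoters of all genes were counted singly and were not limited to genes at 1 FPKM or more. So nothing particular to vesicle release genes is read from the motif shares here and below. Members higher in hypothalamus with a promoter in the table (12 of 14) had a median GC content of 58.2%, and those lower in hypothalamus (10 of 17) one of 66.8%. Single promoters ran from 45.2% (Unc13c) to 80.8% (Syt9) among the higher members. Among the lower members they ran from 54.8% (Unc13b) to 72.8% (Bsn), a range inside that of the higher members, and no test was run.

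The palindromic cyclic AMP response element TGACGTCA was found in 3 of the 41 promoters (7.32%), against 1.89% of all, those of Vamp1, Syn1 and Napa. They are printed because Vamp1 and Napa were among the members higher in hypothalamus and Syn1 was a member whose tissue ranges overlapped (192 FPKM in hypothalamus and 155 FPKM in hippocampus). Each runs 5′ to 3′ on the plus strand of GRCr8 up to the base before the start, with the motif in capitals: Vamp1 at chr4:159698644-159698893, Syn1 at chrX:3725495-3725744 and Napa at chr1:85915185-85915434.
Vamp1: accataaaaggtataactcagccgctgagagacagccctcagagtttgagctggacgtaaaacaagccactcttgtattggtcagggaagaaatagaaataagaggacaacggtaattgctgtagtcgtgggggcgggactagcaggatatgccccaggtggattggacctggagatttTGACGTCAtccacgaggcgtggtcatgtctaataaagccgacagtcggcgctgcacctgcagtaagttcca
Syn1: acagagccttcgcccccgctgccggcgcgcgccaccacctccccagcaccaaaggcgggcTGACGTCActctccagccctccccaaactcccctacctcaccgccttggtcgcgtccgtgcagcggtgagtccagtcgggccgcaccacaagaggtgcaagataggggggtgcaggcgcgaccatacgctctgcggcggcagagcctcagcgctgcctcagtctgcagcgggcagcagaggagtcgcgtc
Napa: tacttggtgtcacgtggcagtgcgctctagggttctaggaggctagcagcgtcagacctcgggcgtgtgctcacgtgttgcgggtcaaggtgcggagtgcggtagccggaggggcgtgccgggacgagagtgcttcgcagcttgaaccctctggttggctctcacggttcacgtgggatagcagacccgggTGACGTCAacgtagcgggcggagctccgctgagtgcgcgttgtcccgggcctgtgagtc
The motif begins 71 bases before the start in Vamp1, 190 in Syn1 and 59 in Napa. A match of letters does not show that a factor binds there.

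Members with several loci in a table had an uneven pattern in the replicate 1 libraries. In hippocampus 17 members had several loci, and of their 31 loci with at least 1 FPKM, 11 (35.5%) were under 10% of the median of the other libraries in both replicate 1 libraries. In hypothalamus 6 members had several, and 5 of their 12 loci (41.7%) were low in this way. The same held for 13.3% of the 1747 such loci of all symbols in hypothalamus and 21.5% of 2149 in hippocampus, but for only 0.185% of 9751 and 0.173% of 9236 loci of symbols with 1 locus, and for 0 of the 50 and 41 such members. The low locus was the one used here for Vamp2 in hypothalamus and for Cplx1, Cplx2 and Stxbp6 in hippocampus. The cause was not tested, and a listed 0 can be a failed estimate.

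Vamp2, the main vesicle SNARE of the brain, was at 0, 703 and 1258 FPKM in fructose and 0, 928, 753 and 1017 FPKM in control hypothalamus at the locus used, and at 291, 567 and 490.2 FPKM in fructose and 288, 476, 474 and 576 FPKM in control libraries at its second locus. In hippocampus its main locus was at 466, 1533, 1587 and 869 FPKM in fructose and 463, 1244, 1296 and 1314 FPKM in control libraries. Only the locus used in hypothalamus was at 0 in the replicate 1 libraries, although the hippocampus values of those libraries were also the lowest. Cplx1, the complexin of most brain synapses, was at 0, 1048, 1017 and 1451 FPKM in fructose and 0, 1236, 1292 and 1461 FPKM in control hippocampus, and at 300.2, 155, 185 and 202 FPKM in fructose and 218, 205, 198 and 180.4 FPKM in control libraries at its second locus. Cplx2 was at 0, 242, 248 and 175 FPKM in fructose and 0, 256, 178 and 189 FPKM in control hippocampus, and at 227, 79.7, 136 and 115 FPKM and 261, 143, 143 and 64.0 FPKM at its second locus. For both complexins the replicate 1 libraries were at 0 at the locus used and the highest of their group at the second locus. In hypothalamus, where the loci used were not at 0, Cplx1 was at 117, 153 and 150.2 FPKM in fructose and 98.3, 182, 138 and 187 FPKM in control libraries and Cplx2 at 52.9, 56.7 and 45.8 FPKM and 69.7, 46.4, 35.3 and 46.9 FPKM.

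**Figure D3:**
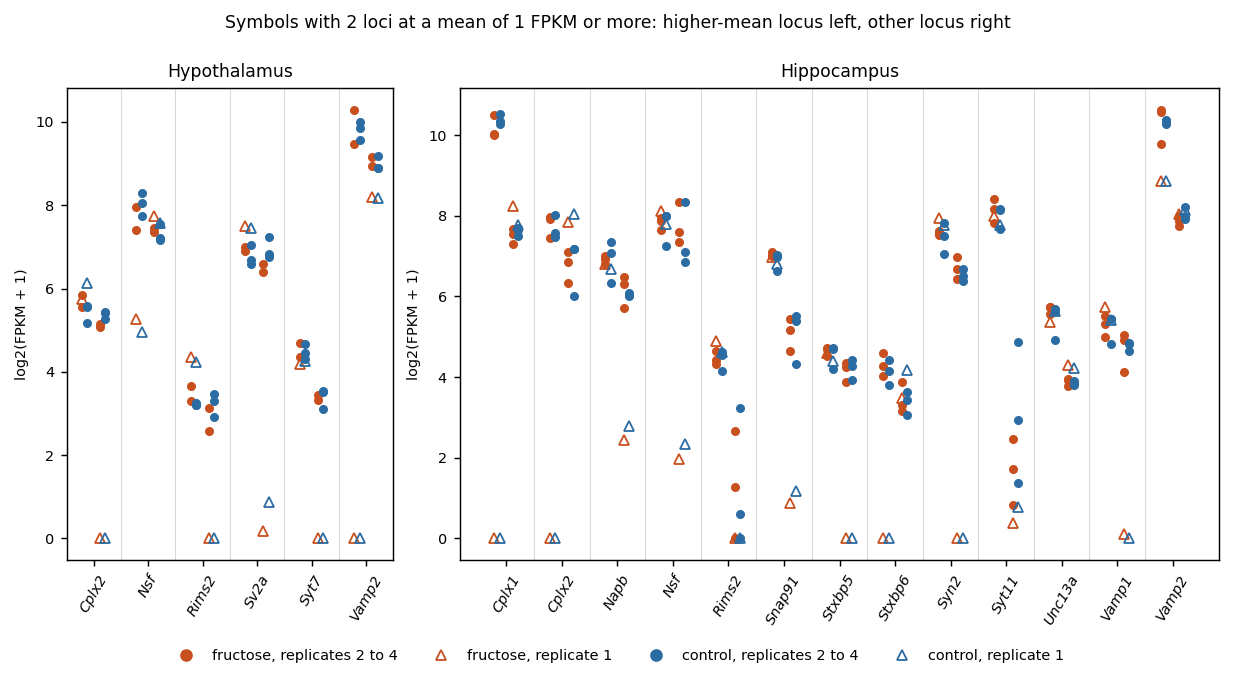
Symbols with 2 loci at a mean of 1 FPKM or more are shown as log2(FPKM + 1) of each library, the locus with the higher mean on the left of each pair and the other on the right; colours give the group and triangles are the replicate 1 libraries. For most symbols 1 of the 2 loci has both triangles near 0, as for Vamp2 in hypothalamus and Cplx1 in hippocampus.

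The first comparison asked whether 6 weeks of fructose changed these transcripts in hypothalamus, and no member passed the test. Each locus was fitted on log2(FPKM + 1) with limma's moderated test over 11498 loci, with Benjamini-Hochberg adjustment. Of the 56 members, 0 had an adjusted p under 0.05 (lowest 0.9998), against 0.0087% of all loci. At an unadjusted limma p under 0.05 there was 1 member (1.79%), which was higher, against 3.14% of all loci (1.02% higher and 2.12% lower). Fructose and control libraries overlapped for all 56 members, whereas 1.75% of all loci had fructose libraries wholly higher and 1.58% wholly lower. The fold change was positive for 33 members and negative for 23, with a median of 0.04 on the log2 scale, against 51.5% positive and a median of 0.01 over all loci. By role, the change was positive for 10 of 15 synaptotagmins and Doc2 proteins, 3 of 8 SNARE proteins and 7 of 11 SNARE regulators. It was also positive for 7 of 13 priming and active zone genes and 6 of 9 vesicle and endocytosis genes. The 95% interval of the change lay within -1 and 1 for 48 members and within -0.5 and 0.5 for 21. Among these 21 were Snap25 (-0.02 ± 0.17, SE), Syt1 (0.0044 ± 0.17, SE) and Syn2 (-0.01 ± 0.11, SE). The changes of all members ran from -0.77 (Vamp2) to 0.50 (Syn3).

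Syn3, a synapsin made early in neuronal development, was the member with the smallest p in hypothalamus. It was at 4.96, 4.40 and 4.06 FPKM in fructose and 4.51, 2.63, 2.28 and 2.41 FPKM in control libraries, a log2 fold change of 0.50 ± 0.20 (SE) with an unadjusted limma p of 0.0425 and a limma adjusted p of 0.9998. The 2 highest values, 1 of each group, were the replicate 1 libraries, and the other control libraries lay below every fructose library. Vamp8, a SNARE of endosomes and of secretory cells outside the brain, was at 46.0, 28.2 and 47.0 FPKM in fructose and 53.3, 43.4, 54.7 and 78.6 FPKM in control libraries (log2 fold change -0.50 ± 0.25, SE). Only fructose replicate 2 lay below all control libraries, so the groups overlapped.

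Among the synaptotagmins and Doc2 proteins of hypothalamus, Syt6 was at 12.9, 13.97 and 11.24 FPKM in fructose libraries. In control libraries it was at 12.03, 10.8, 9.55 and 8.21 FPKM (log2 fold change 0.30 ± 0.16, SE). Syt11 was at 179.6, 228 and 229.8 FPKM in fructose and 179, 198, 179 and 171 FPKM in control libraries (0.22 ± 0.13, SE). For Syt6 and Syt11 at least 1 control library lay within the fructose range, as it did for Syt9 (0.27 ± 0.16, SE), whose values stand above. Syt2, the fast sensor of hindbrain and spinal cord, was at 8.62, 4.83 and 6.45 FPKM in fructose and 7.81, 8.04, 5.96 and 8.57 FPKM in control libraries (-0.19 ± 0.20, SE), and Doc2b, a high-affinity sensor, at 10.6, 20.01 and 18.8 FPKM and 13.0, 16.8, 14.6 and 11.6 FPKM (0.18 ± 0.23, SE). For both genes the lowest and the highest of the 7 libraries were fructose libraries.

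In the priming group of hypothalamus, Rims3 was at 32.4, 43.9 and 34.6 FPKM in fructose and 30.1, 36.3, 31.4 and 32.2 FPKM in control libraries (0.17 ± 0.14, SE). Unc13a had a change of -0.12 ± 0.13 (SE), Rab3d, at 4.34, 4.92 and 7.33 FPKM in fructose and 5.87, 5.299, 6.19 and 7.29 FPKM in control libraries, one of -0.15 ± 0.19 (SE), and Rab3b one of -0.22 ± 0.30 (SE). Rab3a, the most abundant Rab of vesicles, was at 266, 419 and 472 FPKM in fructose and 217, 563, 457 and 556 FPKM in control libraries (-0.16 ± 0.37, SE). The replicate 1 library was the lowest of each group for Rab3a, and its 95% interval ran from -1.02 to 0.70. Napa was at 150.4, 218 and 228 FPKM in fructose and 167, 238, 238 and 266 FPKM in control libraries (-0.20 ± 0.21, SE), with the same order of replicate 1. The change of Vamp2, -0.77 ± 3.27 (SE), has no precision, because 1 library of each group was at 0.

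The replicate 1 libraries and the pairing moved the count in hypothalamus. With the replicate number as a block, 3 members had an unadjusted limma p under 0.05 (5.36%, against 6.6% of all loci), among them Syn3 (0.44) and Vamp8 (-0.34, both log2 fold changes). Without both replicate 1 libraries there were 4 (7.14%, against 9.28% of all loci), Syn3 (0.61), Doc2b (0.42), Rims4 (0.33) and Syt11 (0.33). Counted by direction, 2 members (3.57%) were higher with the block, against 2.28% of all loci, and all 4 (7.14%) without the replicate 1 libraries, against 4.75%. In both settings 0 members passed the adjusted threshold. Markers of neurons summed to 3459 to 3765 FPKM in fructose and 2790 to 3939 FPKM in control hypothalamus, ranges that overlapped. Meningeal fibroblasts are cells of the membranes around the brain. Their markers summed to 47.0 to 206 FPKM in fructose and 199 to 362 FPKM in control libraries. The fold change was negative for all 8 markers and none of them was at 0. Of these, 5 had an unadjusted limma p under 0.05, against 2.12% of all loci called lower. Markers of ependymal cells, which line the ventricles, summed to 54.4 to 68.0 FPKM in fructose and 25.4 to 50.2 FPKM in control hypothalamus. These ranges did not overlap, the fold change was positive for all 4 and none was at 0. For 3 of the 4 the unadjusted limma p was under 0.05, against 1.02% of all loci called higher. No marker of either list passed the adjusted threshold. The part of these cells in the values above was not tested.

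**Figure D4:**
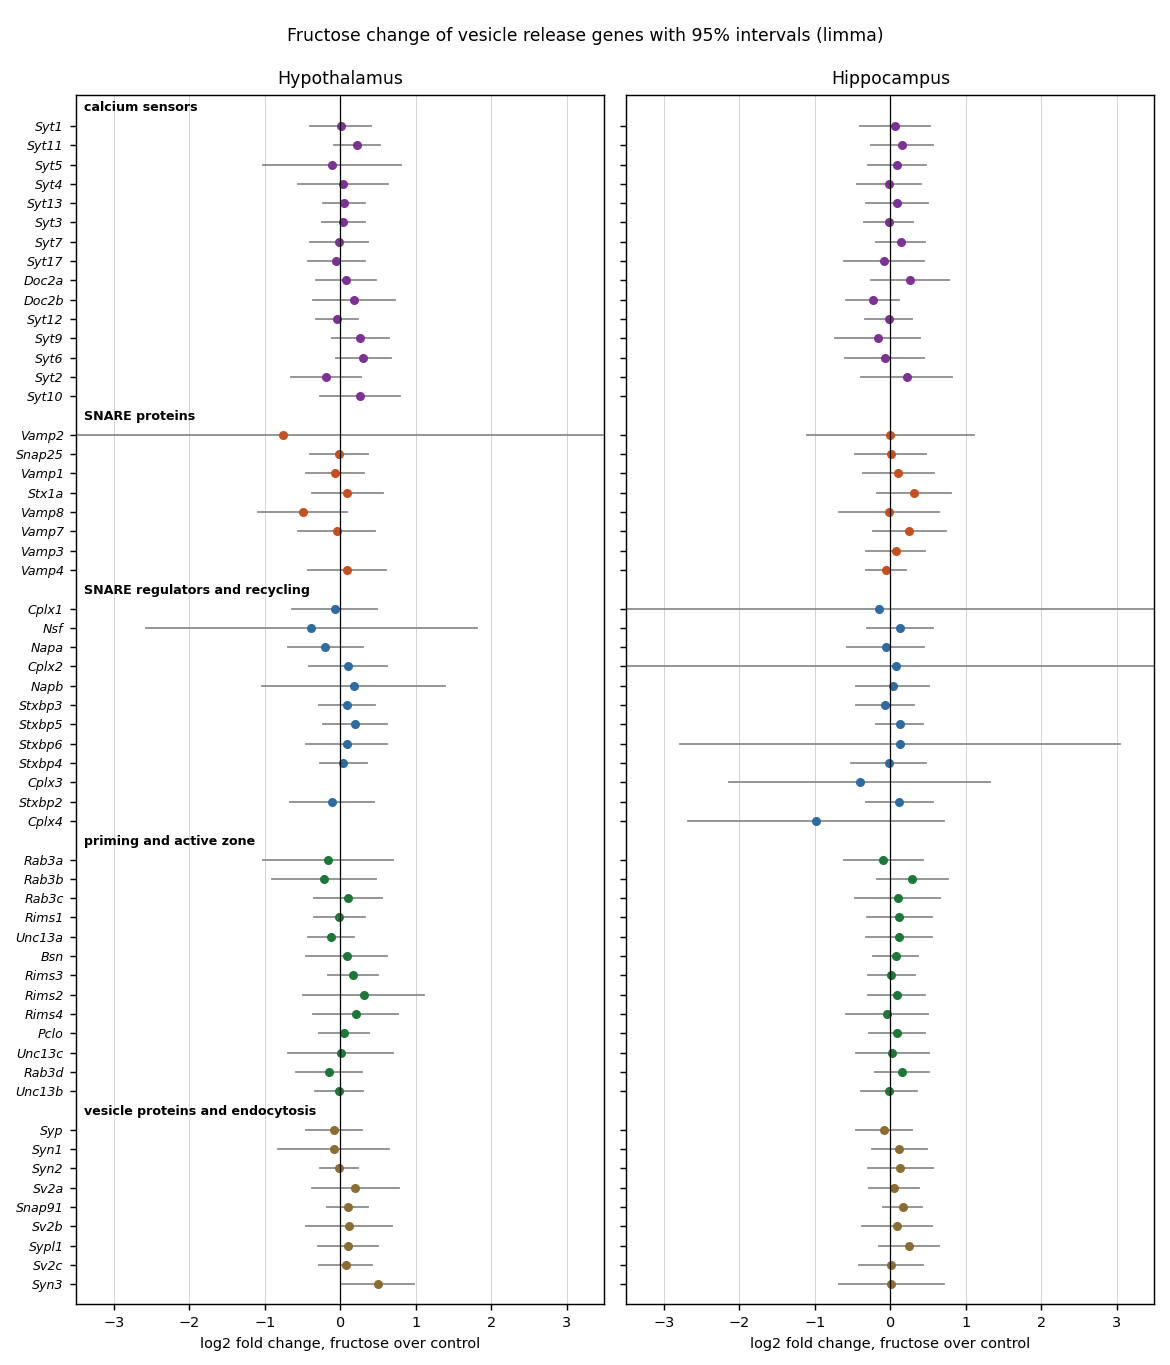
Each point is the log2 fold change of fructose over control from limma on log2(FPKM + 1), with its 95% interval as a line, for hypothalamus on the left and hippocampus on the right, coloured by role. All intervals cross 0 except that of Syn3 in hypothalamus, and those of Vamp2 in hypothalamus and of Cplx1 and Cplx2 in hippocampus run past the axis.

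The second comparison asked the same of hippocampus, and again no member passed the test. Of 58 members, 0 had an adjusted p under 0.05 (lowest 0.9999), against 0% of the 11385 loci. At an unadjusted limma p under 0.05 there were 0 members, against 0.808% of all loci (0.334% higher and 0.474% lower), and the smallest p of a member was 0.165. The groups overlapped for all 58, whereas 0.255% of all loci had fructose libraries wholly higher and 0.413% wholly lower. The fold change was positive for 39 members and negative for 19, with a median of 0.07 on the log2 scale, against 48.6% positive and a median of -0.0038 over all loci. It was positive for 7 of 14 synaptotagmins and Doc2 proteins, 7 of 9 SNARE proteins and 7 of 13 SNARE regulators. It was also positive for 10 of 13 priming and active zone genes and 8 of 9 vesicle and endocytosis genes. The members share their libraries, so these counts are not independent: in control replicate 4 only 17 of 58 members were above their own mean, with a median deviation of -0.24 on the log2 scale, and in control replicate 2 it was 43, with a median of 0.15. Neuron markers had a median deviation of -0.59 in control replicate 4. Without that library the median change of the members was -0.01. The interval of the change lay within -1 and 1 for 52 members and within -0.5 and 0.5 for 23, and the changes ran from -0.99 (Cplx4) to 0.31 (Stx1a).

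Doc2b had the smallest p in hippocampus. It was at 31.2, 24.9, 32.3 and 33.9 FPKM in fructose and 32.2, 46.7, 34.3 and 32.3 FPKM in control libraries, a log2 fold change of -0.24 ± 0.15 (SE). Control replicate 2 lay far above the rest and the other values intermixed. Doc2a was at 35.4, 32.4, 45.8 and 27.6 FPKM in fructose and 33.7, 39.6, 23.1 and 21.9 FPKM in control libraries (0.26 ± 0.23, SE). Doc2a had fructose values that ran from inside to above the control range. Syt6 was at 2.80, 1.92, 1.57 and 2.40 FPKM in fructose and 1.56, 2.09, 4.04 and 2.00 FPKM in control libraries (-0.08 ± 0.23, SE), and Syt9 had a change of -0.17 ± 0.25 (SE).

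Among the SNARE proteins of hippocampus, Stx1a, whose values stand above, had a log2 fold change of 0.31 ± 0.21 (SE). Its lowest library was control replicate 4. Vamp7, a SNARE of late endosomes and neurite growth, was at 50.9, 59.5, 72.0 and 60.1 FPKM in fructose and 37.7, 64.8, 65.3 and 40.6 FPKM in control libraries (0.25 ± 0.21, SE), and Vamp4, a SNARE of the Golgi and of bulk endocytosis, at 8.92, 10.99, 11.1 and 10.7 FPKM and 10.1, 12.5, 11.24 and 9.71 FPKM (-0.06 ± 0.12, SE). For both, the fructose and control values intermixed. Snap25 (0.01 ± 0.20, SE), Syt1 (0.06 ± 0.20, SE) and Unc13a (0.12 ± 0.19, SE), genes of the core of fusion, had changes smaller than their standard errors.

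Of the vesicle proteins of hippocampus, Snap91, at 125, 128, 135 and 128 FPKM in fructose and 112, 129.7, 124 and 98.5 FPKM in control libraries, had a change of 0.16 ± 0.11 (SE). It also had the smallest coefficient of variation of the members in hippocampus, 9.69% over all 8 libraries, where the median of the members was 19.2%; in hypothalamus Syn2 had the smallest, 5.26%, and the median was 19.1%. Sypl1, a synaptophysin relative found in many tissues, was at 27.2, 17.97, 23.5 and 22.5 FPKM in fructose and 15.98, 19.3, 24.7 and 16.2 FPKM in control libraries (0.25 ± 0.17, SE). Syp was at 638, 582, 662 and 480.1 FPKM in fructose and 614, 758, 621 and 508 FPKM in control libraries (-0.08 ± 0.16, SE). Rab3b had a change of 0.29 ± 0.21 (SE), with control replicate 2 the lowest library and fructose replicate 2 the highest. Syn3, which had the smallest p in hypothalamus, was at 2.41, 1.31, 1.64 and 1.60 FPKM in fructose and 2.74, 1.61, 2.67 and 0.461 FPKM in control hippocampus (0.01 ± 0.30, SE), near the 1 FPKM limit. With the replicate block 0 members had an unadjusted p under 0.05 (against 1.78% of all loci, 0.782% being higher), and 0 without both replicate 1 libraries (against 1.34%, with 0.607% higher). Meningeal markers summed to 182 to 674 FPKM in fructose and 44.6 to 444 FPKM in control hippocampus, with a positive fold change for all 8 and none at 0, and neuron markers to 988 to 1478 FPKM and 902 to 1448 FPKM; their part in the values above was not tested.

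Complexins 3 and 4, the forms of retinal ribbon synapses, stood out in a single library of hippocampus. Cplx3 was at 2.65, 0.804, 1.16 and 2.42 FPKM in fructose and 1.99, 0.668, 0.559 and 18.2 FPKM in control libraries. Cplx4 was at 0, 0, 0.209 and 0 FPKM in fructose and 0.291, 0.0392, 0.129 and 11.4 FPKM in control libraries. For both genes control replicate 4 was far above all others. The same library held 370 FPKM of Tph1, the serotonin-forming enzyme of the pineal gland, against at most 0.791 FPKM in the others, 24.3 FPKM of the photoreceptor factor Crx, against 0, and 14.4 FPKM of the melatonin enzyme Asmt, against at most 0.665 FPKM. All 10 genes of that list were at or under 3.35 FPKM in sum in each other library. Without control replicate 4 the mean of Cplx4 was 0.0956 FPKM in place of 1.505, which is under the limit for members, and that of Cplx3 was 1.47 in place of 3.56. The fold change was -0.99 ± 0.74 (SE) for Cplx4 and -0.40 ± 0.75 (SE) for Cplx3 with all libraries, and that of Cplx3 was 0.42 without control replicate 4. The part of pineal tissue in these values was not tested. In hypothalamus Cplx4 was listed at 0 in all 7 libraries and Cplx3 at 0.495, 0.670 and 1.06 FPKM in fructose and 0.794, 0.735, 1.03 and 1.35 FPKM in control libraries.

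**Figure D5:**
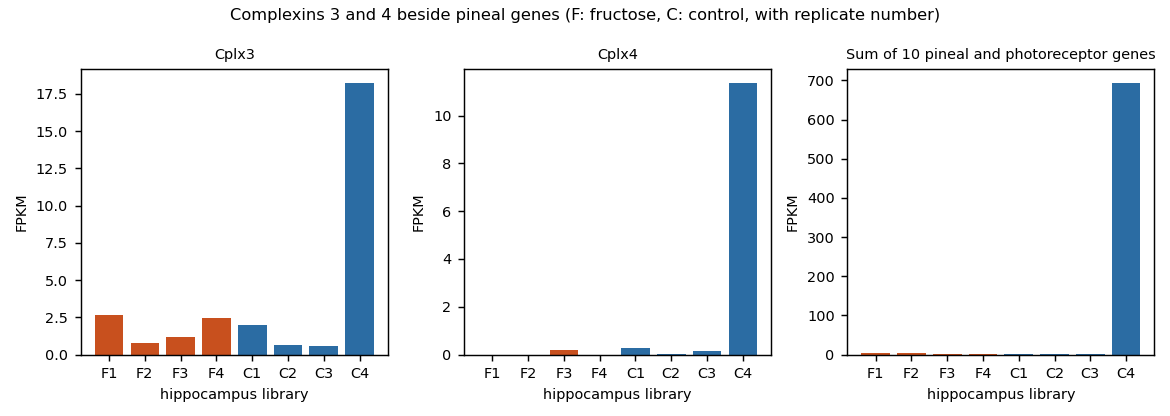
Bars give the FPKM of Cplx3, of Cplx4 and of the sum of 10 pineal and photoreceptor genes in each hippocampus library, fructose (F) in orange left of control (C) in blue, numbered by replicate. Control replicate 4 stands at 18.2 FPKM, 11.4 FPKM and 694 FPKM, far above the other 7 libraries in each panel.

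The third comparison asked whether the fructose change differed between hypothalamus and hippocampus, and no member passed the test. The interaction was fitted over 9931 symbols at 1 FPKM or more in both tables. Of the 55 members in it, 0 had an adjusted limma p under 0.05 (lowest 0.9999), against 0% of all symbols, and 0 an unadjusted p under 0.05, against 2.31% of all. The difference, hypothalamus minus hippocampus, was positive for 24 members and negative for 31, with a median of -0.02 on the log2 scale, against 0.02 over all symbols. The smallest p was 0.158, that of Doc2b, with a difference of 0.42 ± 0.28 (SE) (95% interval -0.18 to 1.02). Syt9 followed with 0.43 ± 0.31 (SE), Rab3b with -0.51 ± 0.37 (SE), Syt6 with 0.38 ± 0.29 (SE) and Syn3 with 0.49 ± 0.38 (SE). For these 5 genes the intervals include both 0 and a difference of close to 1 or more on the log2 scale.

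The fourth comparison asked whether fructose shifted the balance between paralogs inside a library. The exact two-sided permutation test was run for 14 pairs in each tissue, 28 tests in all, with Benjamini-Hochberg adjustment over them; the smallest p it allows is 0.0286 in both tissues. A single pair at that p would have an adjusted p of 0.8, and 17 of the 28 tests would have to reach it to pass 0.05, so the adjusted result was all but fixed by the design. No pair had a raw p under 0.05, and the lowest adjusted p was 0.948. The smallest raw p, 0.0857, was that of Doc2a to Doc2b in hippocampus, where the log2 ratio was 0.19 ± 0.34 in fructose and -0.31 ± 0.29 in control libraries (SD, n = 4 each, exact permutation). In hypothalamus the same ratio was 0.36 ± 0.54 in fructose (n = 3) and 0.47 ± 0.10 in control libraries (n = 4). The Sv2a to Sv2b ratio, which had separate ranges in the tissues, was 3.62 ± 0.22 in fructose and 3.53 ± 0.20 in control hypothalamus, and 0.58 ± 0.28 and 0.62 ± 0.20 in fructose and control hippocampus. In both of these pairs the group means differed by less than the spread between libraries, except that of Doc2a to Doc2b in hippocampus.

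Other genes of the vesicle cycle outside the rule were taken from 4 lists. In hypothalamus the fold change was positive for 3 of 14 genes of transmitter loading (vesicular transporters and the proton pump), 14 of 22 of endocytosis and recycling, 13 of 17 of scaffolds and calcium entry and 11 of 23 other vesicle and fusion proteins, against 51.5% of all loci. At an unadjusted limma p under 0.05 were Eps15 and Ston2 of the endocytosis list, both higher (2 of 22, against 1.02% of all loci called higher), and 0 genes passed the adjusted threshold. Eps15, a clathrin coat adaptor, was at 46.6, 51.4 and 48.0 FPKM in fructose and 42.5, 40.3, 35.5 and 36.9 FPKM in control hypothalamus (0.32 ± 0.11, SE), groups that did not overlap. Ston2, the stonin adaptor for synaptotagmin, was at 7.61, 9.23 and 7.81 FPKM in fructose and 7.47, 6.10, 6.26 and 5.92 FPKM in control hypothalamus (0.31 ± 0.13, SE), also without overlap, as for 1.75% of all loci. Slc30a3, the zinc transporter of glutamate vesicles, was at 2.51, 2.43 and 1.65 FPKM in fructose and 8.96, 3.54, 1.98 and 4.61 FPKM in control hypothalamus (-0.73 ± 0.38, SE), groups that overlapped. In hippocampus the counts were 7 of 14, 13 of 22, 11 of 19 and 10 of 23 for the same lists, against 48.6% of all loci. There Slc10a4, a vesicle protein of cholinergic and aminergic neurons, was at 1.99, 1.33, 2.06 and 1.19 FPKM in fructose and 2.02, 2.93, 6.22 and 2.42 FPKM in control libraries (-0.66 ± 0.28, SE). The vesicular glutamate transporter Slc17a6 was at 5.07, 4.01, 3.70 and 4.46 FPKM in fructose and 4.89, 4.83, 6.47 and 7.19 FPKM in control hippocampus (-0.36 ± 0.15, SE). Slc17a8, the third vesicular glutamate transporter, was at 2.34, 1.28, 1.68 and 2.13 FPKM in fructose and 1.06, 1.47, 1.40 and 1.08 FPKM in control hippocampus (0.33 ± 0.16, SE). The first 2 had an unadjusted limma p of 0.0416 and 0.0453 and were lower (2 of the 14 genes of transmitter loading, against 0.474% of all loci called lower). The limma adjusted p of all 3 was 0.9999, and their groups overlapped.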

How the data were processed

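Poly-A RNA of both tissues was sequenced on an Illumina instrument, per the labels' protocols. Per the submitters' processing notes, the tools were Bowtie, Bowtie2, TopHat, TopHat2, Cuffdiff and Cufflinks, without versions, and the build was rn5. The authors deposited FPKM for each locus and library, 1 table per tissue, with a status flag; loci with a flag other than OK (36 in hypothalamus, 117 in hippocampus) were kept. FPKM carry no read counts, so depth is unknown and no interval for counting error is given. The FPKM of a library summed to 435105 to 492778 in hypothalamus and 353703 to 402099 in hippocampus.

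Tissue and treatment in the labels set the groups of the 15 libraries. Loci with a mean of at least 1 FPKM were tested after a log2(FPKM + 1) transform by limma 3.58.1 under R 4.3.3 (moderated test, trend in the prior variance, group only), two-sided, with Benjamini-Hochberg adjustment over all loci at 0.05; fold changes on this scale understate those of low genes. The design had assumed 4 against 4 libraries in each tissue, but the authors' FPKM held no values for fructose replicate 4 of hypothalamus. The difference between tissues was the interaction term over symbols. Paralog ratios were tested by exact permutation. In simulated data the test recovered 82 of 100 loci changed by 1 on the log2 scale and 93 of 100 changed by 2 in hypothalamus (9 false calls in 11498). In hippocampus it recovered 73 and 95 (10 false calls in 11385). The simulated noise was independent between libraries and had the spread of the libraries other than replicate 1. The real fits include replicate 1, so these rates can overstate what the real fits would recover.

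Values of 2 members are not reported here and not plotted, while counts and medians over the members include them. The members and all gene lists were chosen with earlier results of these data known. Values by library are given for the 6 members with the smallest p in each direction, the 5 for the difference between tissues, the 5 highest in each tissue, the 4 most unlike in level between tissues in each direction, and 9 core fusion genes, and for the 3 companion genes with the smallest p in each tissue. Same-numbered libraries deviated together (r = 0.848, 0.488 and 0.456 for hypothalamus replicates 1 to 3, and 0.892, 0.208, 0.481 and 0.41 for hippocampus replicates 1 to 4), so the replicate number of the labels was taken to pair them and a block fit was run. Without replicate 1 they were 0.269 and 0.0364 (hypothalamus) and -0.226, 0.404 and 0.0882 (hippocampus), so the pairing rests mainly on replicate 1. The alternatives were the pseudocount, the filter on low values, median-ratio scaling, no trend, the block, no replicate 1 libraries, each library left out, and summed loci; the use of the locus highest in replicate 1, and the paralog ratios without replicate 1, were chosen after seeing the data. Promoters came from RefSeq (GRCr8). Python 3.11.15 and matplotlib 3.10.9 were used.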

Additional observations from a re-analysis of the deposited data

Results flagged for a closer look

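In groups of 4 libraries, 11 of 78 group values of named members (14.1%) had a library farther from the rest than Dixon's 95% limit of 0.829, against 7.6% of the 34262 group values of all loci with at least 1 FPKM, where chance gives about 1 in 20. The named members were chosen partly by level and p and share these libraries, so nothing particular to them is read from the count. Of these, 3 were in replicate 1 and 3 in hippocampus control replicate 4. In hippocampus control replicate 4, Cplx3 was at 18.2 FPKM (next value 1.99), Cplx4 at 11.4 FPKM (next 0.291) and Unc13a at 29.3 FPKM (next 49). In hippocampus control replicate 1, Cplx1 was at 0 FPKM (next 1236) and Vamp2 at 463 FPKM (next 1244). Doc2b was at 46.7 FPKM (next 34.3) and Rab3b at 17.5 FPKM (next 25.8) in hippocampus control replicate 2. Rab3c was at 10.9 FPKM (next 16.1) in hippocampus fructose replicate 2, and Cplx4 at 0.209 FPKM in fructose replicate 3, where the other 3 fructose libraries were at 0. In hypothalamus, Syn3 was at 4.51 FPKM in control replicate 1 (next 2.63), and Sv2c at 18.5 FPKM in control replicate 2 (next 13.5).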

How the results depend on the processing

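No member passed an adjusted p of 0.05 in either tissue with the replicate block or without both replicate 1 libraries, and no named member passed it under any alternative run. The count of all loci past that threshold in hypothalamus, 1 as reported, was 0 with a mean of at least 5 FPKM, 2 with the replicate block and 2 without both replicate 1 libraries, and 0 to 2 with single libraries left out (0 without fructose replicate 2 or 3, and 2 without control replicate 1, 3 or 4). The count of hypothalamus members at an unadjusted p under 0.05, 1 as reported, was 0 with at least 5 FPKM (Syn3 is then not tested), 3 with the replicate block, 4 without both replicate 1 libraries, and 0 to 2 with single libraries left out (2 without replicate 1 of either group, and 0 without fructose replicate 2 or 3 or control replicate 3 or 4). In hippocampus both counts, 0 as reported, were 0 to 1 with single libraries left out, the 1 being without control replicate 3, and the count of symbols for the difference between tissues, 0 as reported, was 0 to 1, the 1 without replicate 3. The block changed no other call, and it gave 0 for hippocampus members and for paralog ratios, whose test could hardly pass at this number of libraries. Leaving out a library turned the sign of some uncalled changes. Rab3b in hypothalamus, -0.22 as reported, was 0.0141 with the replicate block and -0.40 to 0.0141 with single libraries left out. In hippocampus the ranges were -0.10 to 0.00978 for Vamp4, -0.32 to 0.00544 for Syt9 and -0.17 to 0.0183 for Syp. Cplx3 in hippocampus, -0.40 as reported, moved far more, from -0.79 to 0.42, the upper end being without control replicate 4. The median change of the members was -0.0039 to 0.08 in hypothalamus and -0.01 to 0.145 in hippocampus with single libraries left out. Cplx4 gave no value without hippocampus control replicate 4, since its mean was then under 1 FPKM. Of the values for named members and ratios, 480 kept their direction and call and 8 turned. As reported, their adjusted p (limma or exact permutation) was 0.948 or more, so keeping the call was all but fixed. Of the values for counts and medians, 105 stayed the same and 20 moved. With 3 or 4 libraries per group and unknown depth, the 95% interval of the change lay within -1 and 1 on the log2 scale for 48 of 56 members in hypothalamus and 52 of 58 in hippocampus, and within -0.5 and 0.5 for 21 and 23.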

Other observations

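Transcripts of the pituitary hormone genes Cga and Tshb varied widely between hypothalamus libraries, at 19.9 to 762 FPKM and 0.946 to 206 FPKM. Pou1f1 was at 16.4 to 29.7 FPKM and Lhb at 2.36 to 11.3 FPKM. Gh1 was at 0.0784 to 7.965 FPKM and Prl at 0 to 0.34 FPKM. The summed level of 6 pituitary genes (Gh1, Prl, Cga, Lhb, Tshb and Pou1f1, a list chosen after the values were seen) was 861, 49.5 and 406 FPKM in fructose and 376, 76.8, 839 and 439 FPKM in control hypothalamus, and 0.48 to 2.72 FPKM in hippocampus. The groups overlapped. Markers of the choroid plexus summed to 1474 to 5711 FPKM in fructose and 1174 to 7495 FPKM in control hippocampus.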
